A study of Mus musculus with 10 samples.

Results

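Branched-chain amino acid catabolism is the route by which leucine, isoleucine and valine are broken down in mitochondria. It is described here by 10 genes, taken by symbol from the 17359 genes of the deposited count table, and all 10 were found and passed the filter on low counts. The samples were livers of mice on a high-fat diet. The ad libitum group (AL, n = 3) ate freely. The other mice went through a 7-day cycle of calorie restriction: intake was cut by 50% on its first day, by 70% on each of the next 2 days and by 50% on day 4, after which they ate freely until day 7. The LC group (low calorie, n = 4) was sampled on day 3 and the RF group (refeeding, n = 3) on day 7. All 3 groups were on the high-fat diet, so none shows a liver without it. Strain, sex and age of the mice, and the hour of collection, were not given in the sources used here. Nothing in the labels says that the samples of a group were separate animals, so the p-values reflect only how far these samples spread, and that spread may be technical.

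The pathway begins with a transaminase that moves the amino group to 2-oxoglutarate. The branched-chain keto acid dehydrogenase complex (BCKDH) then removes a carboxyl group and commits the carbon skeleton to breakdown. A kinase switches that complex off by phosphorylating it, and a phosphatase reverses this. After BCKDH the chains part: leucine leads to acetyl-CoA and acetoacetate, valine to propionyl-CoA, and isoleucine to both acetyl-CoA and propionyl-CoA. Rodent liver is known for low transaminase and high BCKDH activity, so that it mainly receives keto acids made in muscle and other tissues.

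Restriction was accompanied by lower transcripts of 4 genes for steps past BCKDH and a higher transcript of the transaminase, and at refeeding neither was called against AL. At LC against AL, Mccc1, Mccc2, Hibch and Hibadh fell by 0.73 to 1.09 on the log2 scale, which is 1.66-fold to 2.13-fold lower. Bcat2 rose 1.62-fold. The other 5 genes, Bckdha, Bckdhb and Dbt of BCKDH, its kinase gene Bckdk and Ivd, did not pass the test. Of all genes, 31.5% passed at LC against AL, 16% higher and 15.6% lower. At RF against AL, 0 of the 10 genes passed, in a comparison where 0.0547% of all genes did, so that this count says nothing particular about them.

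Levels are given as CPM, the usual scale on which a gene's expected counts are divided by the size of its library, with library sizes corrected by TMM (edgeR's trimmed mean of log ratios between libraries). A gene was called changed where the adjusted p of edgeR's quasi-likelihood test, adjusted by Benjamini-Hochberg over all 12789 genes tested, was below 0.05. Library totals were 13871500 to 15899500 expected counts. A principal component analysis of log2 CPM separated LC (27.1 to 44.5 on component 1) from AL and RF (−37.5 to −11.1), and of the AL libraries replicate 2 came closest to LC. Defining hepatocyte transcripts were high throughout, with Alb at 29505 to 67104 CPM. The summed level of the 8 hepatocyte markers was 86806 to 104219 CPM at AL, 53920 to 68985 CPM at LC and 80913 to 85672 CPM at RF. The 7 markers of sinusoidal endothelium summed to 175 to 193 CPM, 278 to 306 CPM and 236 to 269 CPM in the same order. Most of the hepatocyte sum was Alb. Alb, Apoa1, Ttr, Serpina1c, Cps1 and Ahsg were lower in every LC than in every AL library, whereas Hnf4a and Tat overlapped. Of the endothelial markers, Stab1, Stab2, Kdr and Oit3 were higher in every LC than in every AL library, whereas Clec4g, Lyve1 and Pecam1 overlapped. The 7 Kupffer cell and macrophage markers (85.8 to 141, 93.6 to 167 and 108 to 153 CPM), the 6 stellate cell markers (166 to 184, 129 to 172 and 215 to 254 CPM), the 6 cholangiocyte markers (57.2 to 97.2, 76.7 to 97.5 and 79.4 to 125 CPM) and the 6 lymphocyte and neutrophil markers (13.4 to 17.3, 13.1 to 19.4 and 16.4 to 21.2 CPM) overlapped between AL and LC. The part of these shifts in the results below was not tested. In pieces of whole liver, fewer cells of a type and less RNA per cell cannot be told apart.

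**Figure D1:**
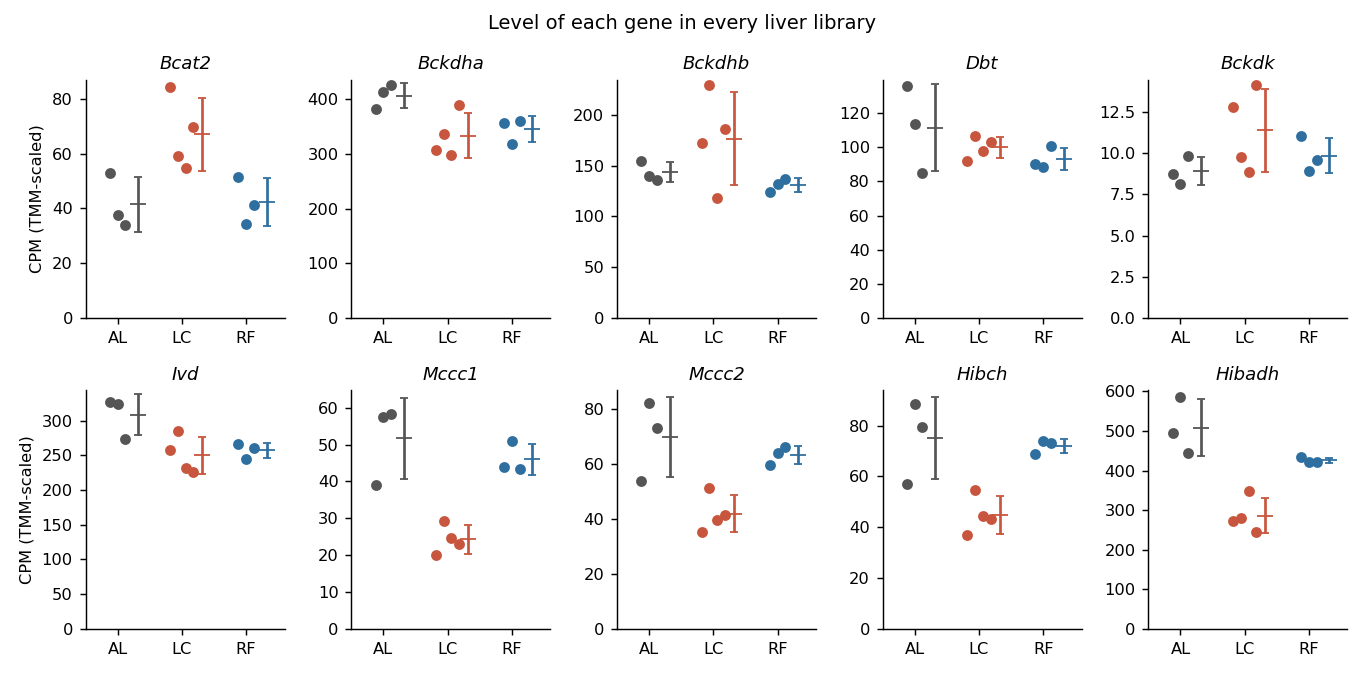
Level of the 10 genes in each liver library, in TMM-scaled CPM on linear axes that start at 0, with points for libraries and a bar for the mean ± SD of each group (AL n = 3, LC n = 4, RF n = 3). Mccc1, Mccc2, Hibch and Hibadh sit lower at LC than at AL and RF, and Bcat2 sits higher.

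Bcat2 (NCBI gene 12036) encodes the mitochondrial branched-chain aminotransferase, the first enzyme of the route. At AL it was at 52.8, 37.6 and 33.9 CPM in replicates 2, 3 and 4. At LC it was at 84.3, 59.0, 54.8 and 69.8 CPM in replicates 1 to 4, and at RF at 51.3, 34.2 and 41.4 CPM in replicates 1 to 3. Every LC library lay above every AL and RF library, though LC replicate 3 exceeded AL replicate 2 by little, and AL and RF overlapped. The log2 fold change was 0.69 at LC against AL (SE 0.19, adjusted p = 0.016) and −0.66 at RF against LC (SE 0.19, adjusted p = 0.027) in edgeR's quasi-likelihood test. The LC against AL call was lost without AL replicate 3 (0.63, adjusted p = 0.081, edgeR) or AL replicate 4 (0.56, adjusted p = 0.080). Over all genes, the 2045 called higher and 1989 lower became 959 and 1151 without AL replicate 3. They became 1196 and 1361 without AL replicate 4. The RF against LC call was lost without LC replicate 1 (0.071) or 4 (0.060), or RF replicate 2 (0.12) or 3 (0.083). With log2(FPKM + 1) the LC against AL value was 1.11.

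The other aminotransferase of the pathway, the cytosolic enzyme encoded by Bcat1, had almost no reads: 0.148 CPM in AL replicate 2 and 0 in the other libraries. Bcat2 is also known from muscle, fat and pancreas. Of the markers of those tissues, some were at or near 0 in every library: Ckm at most 0.156 CPM, Adipoq at most 0.0780 CPM and Cpa1 at 0. Others were not, among them Lipe (12.8 to 29.9 CPM over all libraries) and Fabp4 (6.52 to 17.2 CPM) of the adipocyte list. The 6 muscle markers summed to 0.546 to 1.26 CPM at AL, 0.690 to 1.48 CPM at LC and 0.711 to 1.33 CPM at RF. The 6 acinar markers summed to 13.7 to 19.8 CPM, 6.52 to 19.8 CPM and 23.6 to 27.8 CPM in that order, nearly all of it Cela1. The 7 adipocyte markers in the table summed to 90.3 to 178 CPM, 23.3 to 48.5 CPM and 29.2 to 35.7 CPM. Most of that sum at AL was Cfd, at 49.2 to 142 CPM, against 2.83 to 18.5 CPM at LC. The bearing of these sums on Bcat2 was not tested. GENCODE M21 places the antisense gene 0610005C13Rik opposite Bcat2, and libraries that keep no strand cannot tell their reads apart.

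BCKDH consists of a decarboxylase made of Bckdha and Bckdhb products, the transacylase core encoded by Dbt, and the dihydrolipoyl dehydrogenase encoded by Dld, which it shares with other complexes. Bckdha (NCBI gene 12039) was at 381, 412 and 425 CPM in AL replicates 2 to 4, at 307, 335, 298 and 390 CPM in the 4 LC libraries, and at 356, 318 and 360 CPM at RF. LC overlapped AL through LC replicate 4 and did not pass (−0.29, SE 0.13, adjusted p = 0.11, edgeR), and it was called without LC replicate 4 (0.045) and by DESeq2 (0.047). Bckdhb (NCBI gene 12040) was at 155, 140 and 136 CPM at AL, at 172, 229, 118 and 186 CPM at LC and at 124, 132 and 137 CPM at RF. LC replicate 3 was below every AL library while the other LC libraries were above them all. The log2 fold change was 0.30 (SE 0.18, adjusted p = 0.22, edgeR), and without LC replicate 3 it was 0.45 and passed (0.029). It also passed with trends on transcript length and GC content removed (0.53, adjusted p = 0.033, edgeR). Limma on log2(FPKM + 1) called it as well (0.56, adjusted p = 0.016).

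Dbt (NCBI gene 13171) ranged from 85.0 to 136 CPM at AL, 91.9 to 107 CPM at LC and 88.5 to 101 CPM at RF, so that the groups overlapped and LC against AL did not pass (−0.16, SE 0.15, adjusted p = 0.43, edgeR). The 95% intervals of the LC against AL difference on the log2 scale were −0.56 to −0.0096 for Bckdha, −0.084 to 0.68 for Bckdhb and −0.47 to 0.16 for Dbt, not adjusted for the number of genes. Dld was 107 ± 12 CPM at AL (SD, n = 3), 71.9 ± 6.8 CPM at LC (n = 4) and 93.3 ± 3.25 CPM at RF (n = 3). It fell at LC (−0.57, SE 0.12, adjusted p = 0.0036, edgeR), a call lost with library totals in place of TMM (−0.25, adjusted p = 0.090).

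Bckdk (NCBI gene 12041) encodes the kinase that inactivates BCKDH by phosphorylating the Bckdha product, and Ppm1k the phosphatase that reactivates it. Bckdk was the lowest of the 10 genes in expected counts, with 104 to 225 counts a library. It was at 8.75, 8.12 and 9.79 CPM at AL, at 12.7, 9.73, 8.83 and 14.1 CPM at LC, and at 11, 8.92 and 9.57 CPM at RF. LC replicates 1 and 4 were above all AL libraries and LC replicates 2 and 3 were within their range. It did not pass at LC against AL (0.35, SE 0.18, adjusted p = 0.16, edgeR).

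Ratios within a library do not depend on how libraries are scaled. The count of Bckdk as a share of that of Bckdha was 2.29%, 1.97% and 2.31% in the AL libraries. It was 4.15%, 2.90%, 2.96% and 3.62% in LC replicates 1 to 4, and 3.09%, 2.81% and 2.66% in RF replicates 1 to 3. Every LC and RF library thus lay above every AL library, and LC and RF overlapped. The log2 ratio was higher by 0.63 at LC than at AL (exact two-sided permutation p = 0.057, the smallest that 4 against 3 libraries allow) and by 0.38 at RF than at AL (exact p = 0.10, the smallest that 3 against 3 allow). Adjusted over the 6 ratio comparisons made, both exact permutation p-values became 0.30, so neither could pass.

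Ppm1k was at 288, 268 and 169 CPM at AL, at 205, 342, 298 and 242 CPM at LC and at 143, 141 and 219 CPM at RF. AL and LC overlapped (0.17, SE 0.23, adjusted p = 0.60, edgeR), and Ppm1k was lower at RF than at LC (−0.70, SE 0.23, adjusted p = 0.048). That call was lost without any of 7 libraries (AL replicates 2 and 3, LC replicates 2 to 4, RF replicates 1 and 2; adjusted p = 0.050 to 0.17). The log2 ratio of Bckdk to Ppm1k differed by 0.15 between LC and AL (exact permutation p = 0.91), by 0.67 between RF and AL (exact p = 0.20) and by 0.51 between RF and LC (exact p = 0.29), with overlap in each.

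**Figure D2:**
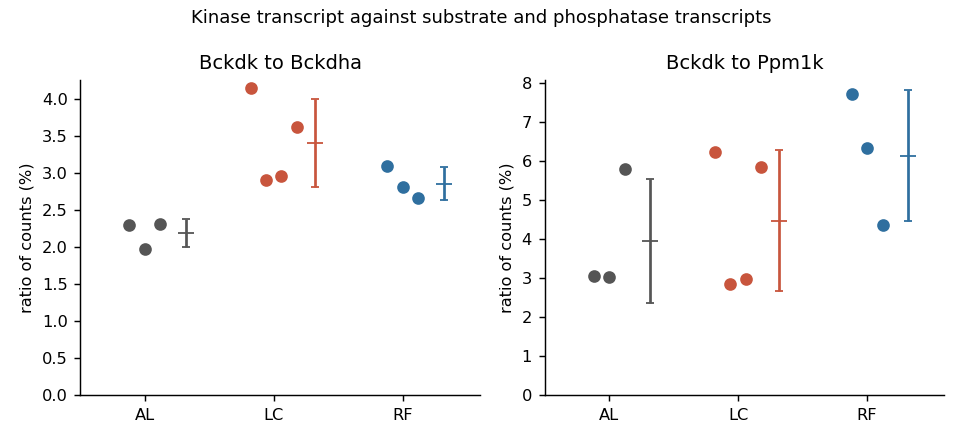
Count of the kinase transcript Bckdk as a percentage of its substrate's transcript Bckdha (left) and of the phosphatase transcript Ppm1k (right) in each library, on linear axes that start at 0, with the mean ± SD of each group. In the left panel the AL libraries lie at 1.97% to 2.31% and all others at 2.66% or above, whereas in the right panel the groups overlap.

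Of the leucine branch, 3 of the 10 genes were measured. Ivd (NCBI gene 56357), isovaleryl-CoA dehydrogenase, was at 326, 324 and 274 CPM at AL, at 257, 285, 232 and 227 CPM at LC and at 266, 245 and 261 CPM at RF. LC replicate 2 was above the lowest AL library, so the groups overlapped, and Ivd did not pass (−0.30, SE 0.13, adjusted p = 0.086, edgeR), though it was called by DESeq2 (0.035), without LC replicate 2 (0.049) and with trends on transcript length and GC content removed (0.034).

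Mccc1 (NCBI gene 72039) and Mccc2 (NCBI gene 78038) encode the biotin-bearing and the carboxyltransferase subunit of 3-methylcrotonyl-CoA carboxylase, the next enzyme. Mccc1 was at 39.1, 57.5 and 58.4 CPM at AL, at 20.2, 29.4, 24.6 and 23.0 CPM at LC and at 43.9, 50.9 and 43.3 CPM at RF. AL replicate 2 was the lowest AL library and still above every LC library. Mccc1 had the largest difference of the 10 genes at LC against AL (−1.09, SE 0.16, adjusted p = 0.00057, edgeR), and it was 1.90-fold higher at RF than at LC (0.92, SE 0.16, adjusted p = 0.0023). Mccc2 was at 53.8, 82.3 and 73.3 CPM at AL, at 35.4, 51.4, 39.7 and 41.5 CPM at LC and at 59.7, 63.9 and 66.4 CPM at RF. Here too no LC library reached AL or RF, with LC replicate 2 just below AL replicate 2. Mccc2 fell by 0.73 on the log2 scale at LC (SE 0.16, adjusted p = 0.0039, edgeR) and was 1.51-fold higher at RF than at LC (0.59, SE 0.16, adjusted p = 0.017), the latter lost without RF replicate 2 (0.055) or 3 (0.061). The antisense genes Mccc1os and B230207O21Rik lie opposite Mccc1 in GENCODE M21, so its counts may hold their reads.

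Of the valine branch, Hibch and Hibadh are among the 10 genes. Hibch (NCBI gene 227095) encodes 3-hydroxyisobutyryl-CoA hydrolase, which frees 3-hydroxyisobutyrate from coenzyme A. It was at 57.1, 88.4 and 79.5 CPM at AL, at 36.9, 54.8, 44.5 and 43.1 CPM at LC and at 68.8, 74.0 and 73.1 CPM at RF. All LC libraries were below all others, and AL replicate 2 and LC replicate 2 came closest. The log2 fold change was −0.74 at LC against AL (SE 0.16, adjusted p = 0.0040, edgeR) and 0.68 at RF against LC (SE 0.16, adjusted p = 0.0096).

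Hibadh (NCBI gene 58875) encodes 3-hydroxyisobutyrate dehydrogenase, which oxidizes that product. It was at 496, 585 and 445 CPM at AL, at 272, 279, 348 and 246 CPM at LC and at 434, 423 and 423 CPM at RF. LC was clear of the other groups, and the 3 RF libraries, close to each other, all lay just below the lowest AL library. Hibadh fell by 0.83 at LC (SE 0.14, adjusted p = 0.0013, edgeR) and was higher at RF than at LC (0.57, SE 0.14, adjusted p = 0.013), the latter lost with library totals (0.36, adjusted p = 0.081).

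Upstream sequence of the 4 genes that fell is shown beside that of Bcat2, because the 4 moved together and Bcat2 moved the other way. The windows are the 250 bases before each RefSeq transcript start, from RefSeq on GRCm38.p6, which is not the build GRCm39 named in the submitters' processing notes. Of the 10 genes, 9 had an entry, with 11 starts in all. Each window is written 5′ to 3′ on the gene's strand, with matches on either strand to 5 motifs in capitals: the CCAAT box (CCAAT), the E-box (CACGTG), the GC box (GGGCGG), an extended nuclear receptor half-site (AAGGTCA) and the core site of nuclear respiratory factor 1 (GCGCA, then any base, then GCGC). Where matches touch or overlap, as CCAAT and its reverse do in Mccc2, the capitals run together.
Mccc1, chr3:36000679-36000928, strand -: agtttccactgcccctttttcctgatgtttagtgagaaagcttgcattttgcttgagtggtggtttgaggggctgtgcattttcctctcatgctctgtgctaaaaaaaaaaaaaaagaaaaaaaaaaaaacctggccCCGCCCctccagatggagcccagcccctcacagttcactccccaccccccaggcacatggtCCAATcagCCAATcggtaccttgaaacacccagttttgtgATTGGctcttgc
Mccc2, chr13:100015640-100015889, strand -: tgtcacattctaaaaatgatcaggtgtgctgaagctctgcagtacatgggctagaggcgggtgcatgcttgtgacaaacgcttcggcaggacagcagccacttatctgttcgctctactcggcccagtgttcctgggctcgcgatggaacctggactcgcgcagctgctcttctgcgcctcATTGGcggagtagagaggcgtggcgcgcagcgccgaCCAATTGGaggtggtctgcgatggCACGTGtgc
Hibch, chr1:52844788-52845037, strand +: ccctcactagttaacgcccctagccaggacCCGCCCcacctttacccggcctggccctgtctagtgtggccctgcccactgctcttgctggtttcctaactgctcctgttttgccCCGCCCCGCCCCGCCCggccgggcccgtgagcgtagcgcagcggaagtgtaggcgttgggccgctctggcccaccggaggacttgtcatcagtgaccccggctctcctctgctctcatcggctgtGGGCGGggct
Hibadh, chr6:52640301-52640550, strand -: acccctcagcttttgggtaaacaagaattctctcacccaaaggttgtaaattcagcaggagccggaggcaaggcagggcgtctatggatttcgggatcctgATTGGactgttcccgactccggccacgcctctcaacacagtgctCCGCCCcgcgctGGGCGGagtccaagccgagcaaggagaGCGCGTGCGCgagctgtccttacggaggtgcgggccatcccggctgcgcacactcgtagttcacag
Bcat2, first listed start, chr7:45569903-45570152, strand +: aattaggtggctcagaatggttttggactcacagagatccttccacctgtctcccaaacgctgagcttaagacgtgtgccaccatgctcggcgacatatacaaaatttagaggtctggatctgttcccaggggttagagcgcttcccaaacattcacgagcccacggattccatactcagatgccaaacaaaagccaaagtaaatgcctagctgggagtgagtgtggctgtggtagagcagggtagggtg
Bcat2, other listed start, chr7:45571029-45571278, strand +: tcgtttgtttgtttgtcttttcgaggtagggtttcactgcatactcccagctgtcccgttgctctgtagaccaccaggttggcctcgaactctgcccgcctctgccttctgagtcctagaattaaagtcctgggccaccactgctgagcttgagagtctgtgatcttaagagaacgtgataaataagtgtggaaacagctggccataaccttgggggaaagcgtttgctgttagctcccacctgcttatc

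A CCAAT box was found in 6 of the 11 windows, against 33.8% of all 32851 RefSeq windows of this length, and in Mccc1, Mccc2 and Hibadh among the genes that fell. A GC box was found in 4 of the 11 windows, against 32.7% of all, and in Mccc1, Hibch and Hibadh. The E-box was found in 1 window, Mccc2 (6.02% of all), and the nuclear respiratory factor 1 core in 1, Hibadh (3.74% of all). The half-site was found in none of the 11 (4.08% of all). Neither Bcat2 window held any of the 5 motifs, and nor did the Bckdha window or the second Bckdhb window. Among the genes without a call at LC against AL, Bckdhb, Bckdk and Ivd held a CCAAT box and Bckdhb a GC box. The motifs therefore do not separate the genes that fell from the others. A match is a run of letters and not a site shown to be bound.

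**Figure D3:**
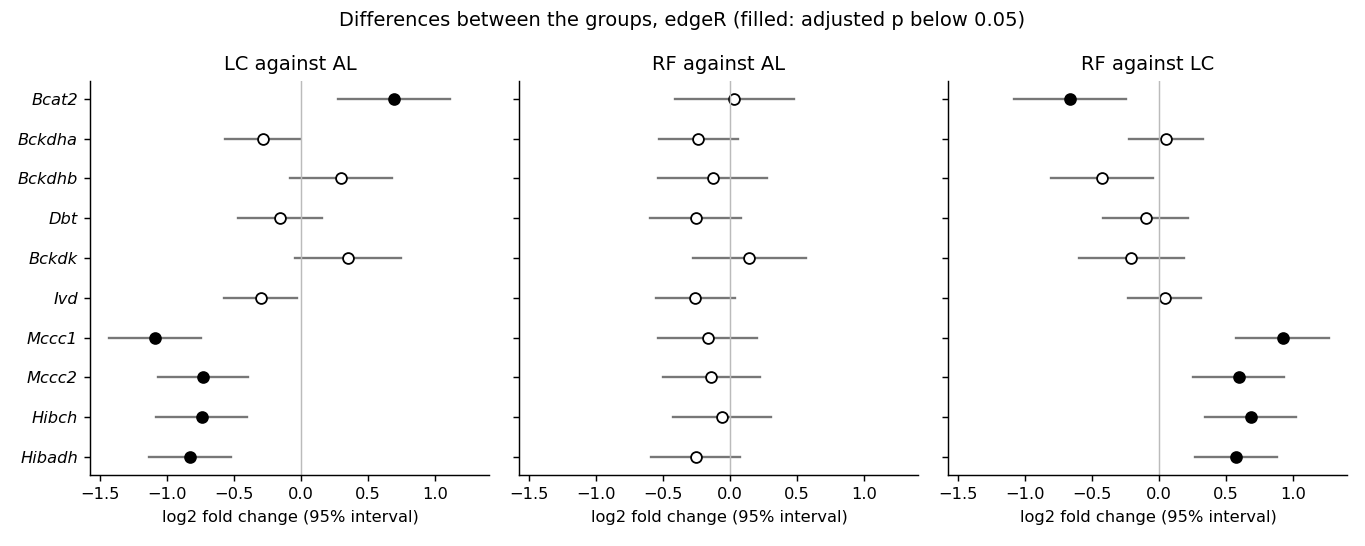
Log2 fold change of the 10 genes in the 3 comparisons (x axis), with edgeR estimates as points, 95% intervals as lines and filled points where the adjusted p was below 0.05. At LC against AL 1 gene is filled on the right and 4 on the left, at RF against AL none is filled, and at RF against LC the same 5 genes are filled on the opposite sides.

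Counted over the 10 genes, LC against AL gave 1 gene higher and 4 lower, beside 31.5% of all genes called, 16% higher and 15.6% lower. The same 5 genes were those with no overlap between the LC and AL libraries, which held for 35.8% of all genes, 18.7% higher and 17.1% lower. The median log2 fold change was −0.29, against 0.05 over all genes tested. With library totals in place of TMM, log2 fold changes shifted upward by a median of 0.31 over all genes, the median of the 10 became 0.02, and the split became 3 higher and 4 lower, with Bckdhb (0.59, adjusted p = 0.013) and Bckdk (0.66, adjusted p = 0.015) joining Bcat2. The signs of Bckdha, Dbt and Ivd, none of them called, turned positive under that scaling. Over all genes, library totals gave 4395 higher and 686 lower. Mccc1 (−0.77), Mccc2 (−0.41), Hibch (−0.42) and Hibadh (−0.50) remained lower and called (adjusted p = 0.0017 to 0.032, edgeR).

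**Figure D4:**
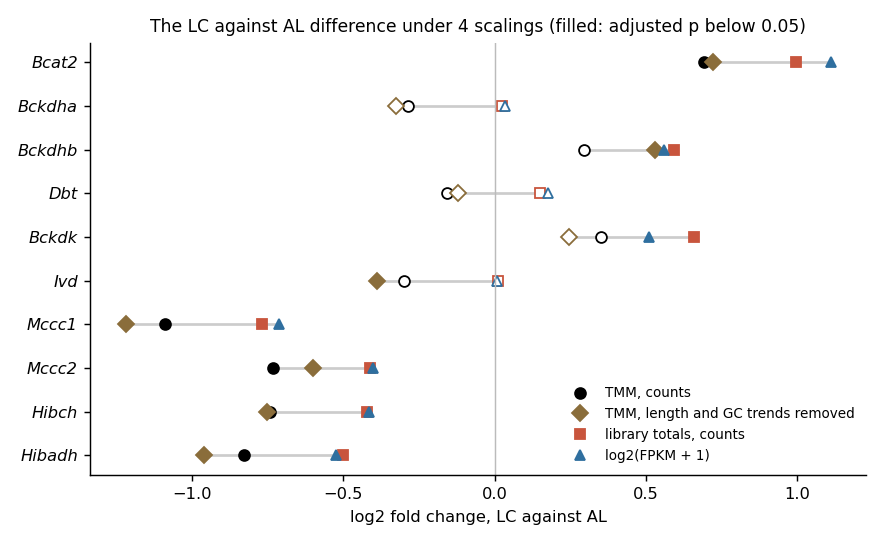
Log2 fold change of each gene at LC against AL (x axis) with TMM, with trends on transcript length and GC content also removed, with library totals, and from log2(FPKM + 1), filled where the adjusted p was below 0.05. Library totals and FPKM move every gene to the right, the 4 genes that fell stay on the left, Bcat2 stays on the right, and Bckdha, Dbt and Ivd cross 0.

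At RF against AL, 0 of the 10 genes passed in edgeR, beside 0.0547% of all genes, 0.0156% higher and 0.0391% lower. An unadjusted p below 0.05 was found for 0 of the 10 and for 1381 of the 12789 genes tested. DESeq2 also called 0, beside 40 higher and 59 lower over all genes. Limma on the FPKM values called 0, beside 1 higher and 0 lower over all genes. With so few calls over all genes, these counts say nothing particular about the 10. The log2 fold changes ran from −0.26 to 0.14, with a median of −0.15 against 0.01 over all genes. Of the 10, Bckdha, Ivd and Hibadh had every RF library below every AL library, and none had the reverse. Of all genes, 18.9% did not overlap, 9.38% higher and 9.56% lower. A p that misses the threshold does not show that levels were equal: the 95% interval at RF against AL was −0.54 to 0.20 for Mccc1 and −0.41 to 0.47 for Bcat2.

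At RF against LC, 4 genes were higher and 1 lower, beside 22.1% of all genes called, 11.4% higher and 10.7% lower. The 4 were Mccc1, Mccc2, Hibch and Hibadh and the 1 was Bcat2, and these 5 had no overlap between RF and LC, as had 34.1% of all genes, 17.7% higher and 16.5% lower. The count was 2 higher and 2 lower with library totals, beside 673 higher and 2724 lower over all genes. Under that scaling Mccc2 (0.39, adjusted p = 0.051, edgeR) and Hibadh lost their calls and Bckdhb gained one (−0.62, adjusted p = 0.015). Bckdhb was also called without LC replicate 3 (−0.58, adjusted p = 0.014, edgeR) and with length and GC trends removed (−0.59, adjusted p = 0.026). The count was 3 without RF replicate 2 or without RF replicate 3. Over all genes, the 1452 higher and 1369 lower became 792 and 643 without RF replicate 2. They became 874 and 768 without RF replicate 3. This comparison and that of LC with AL share the LC libraries, so their opposite signs are not separate evidence.

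Levels of different genes were compared by FPKM, which divides by transcript length. At AL the order by mean FPKM was Hibadh (307 ± 27.9, SD, n = 3), Bckdha (262 ± 15.1), Bckdhb (116 ± 13.1), Ivd (82.0 ± 9.02), Hibch (42.1 ± 6.93), Dbt (35.1 ± 9.27), Mccc2 (33.2 ± 5.18), Bcat2 (19.6 ± 5.22), Mccc1 (16.8 ± 3.02) and Bckdk (3.07 ± 0.442). Neighbours whose AL libraries overlapped were Hibadh and Bckdha, Hibch and Dbt, Dbt and Mccc2, and Bcat2 and Mccc1. At LC Bckdha (269 ± 22.9, n = 4) stood first, ahead of Hibadh (216 ± 42.8) with overlap, and Bcat2 (43.1 ± 7.91) stood above Dbt (38.9 ± 1.45) and Hibch (31.3 ± 4.41), overlapping both, and above Mccc2 (24.8 ± 3.16). At RF Hibadh (278 ± 3.17, n = 3) was again first and Bcat2 (20.2 ± 1.84) again between Dbt (31.5 ± 2.21) and Mccc1 (16.2 ± 1.54).

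Across the 10 libraries, log2 CPM of Mccc2 and Hibch followed each other with Pearson's r = 0.99, Mccc1 and Hibch with 0.98 and Mccc1 and Mccc2 with 0.97. Hibadh had r = 0.82 to 0.87 with those 3. Bcat2 had r = −0.93 with Mccc1, −0.92 with Hibch, −0.90 with Mccc2 and −0.78 with Hibadh, while Dbt had r between −0.05 and 0.23 with the 4. These values describe 10 libraries that fall into groups and share the TMM scaling. The 5 genes outside the pathway lists most like the mean standardized profile of all 10 genes, of 9288 with a mean of at least 5 CPM, were Fah (r = 0.97), Hcfc1r1 (0.96), Cebpzos (0.95), Ccdc28a (0.94) and Apoa1 (0.94). Since Bcat2 and the 4 genes that fell offset each other in that mean, it stands for none of them singly.

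Another 25 genes of the pathway or linked to it were listed, of which 24 passed the filter, all but Bcat1. Besides enzymes of the route, the list held genes for transport, cofactor supply and regulation, and enzymes shared with other routes. Counts over it are therefore not particular to branched-chain amino acid breakdown. At LC against AL, 13 of the 24 fell and none rose, beside 31.5% of all genes called and 15.6% lower. An unadjusted p below 0.05 was found for 18 of the 24 and for 5500 of the 12789 genes tested. The median was −0.55, against 0.05 over all genes. DESeq2 called 16 lower and 0 higher, beside 2247 lower and 2002 higher over all genes. With library totals 7 fell and 1 rose, beside 686 lower and 4395 higher over all genes. Of the valine branch, Acad8 (−0.12, adjusted p = 0.46, edgeR) and Aldh6a1 (−0.35, adjusted p = 0.069) did not pass, and they are named after their values were seen. The falls with the smallest p were those of Pcca, Mmut, Acadsb and Hsd17b10.

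Pcca (NCBI gene 110821), the biotin-bearing subunit of propionyl-CoA carboxylase, was 53.0 ± 15.3 CPM at AL (SD, n = 3), 18.6 ± 1.65 CPM at LC (n = 4) and 44.4 ± 0.473 CPM at RF (n = 3). Its log2 fold change was −1.51 at LC against AL (SE 0.17, adjusted p = 0.00016, edgeR), larger than that of any of the 10 genes. Mmut (NCBI gene 17850), the methylmalonyl-CoA mutase further along the same route, was 131 ± 22.7, 68.3 ± 8.15 and 127 ± 2.54 CPM in that order (−0.94, SE 0.14, adjusted p = 0.00058). Acadsb (NCBI gene 66885), the acyl-CoA dehydrogenase of isoleucine, was 143 ± 15.5, 81.0 ± 8.80 and 124 ± 8.93 CPM (−0.82, SE 0.13, adjusted p = 0.00068). Hsd17b10 (NCBI gene 15108), a dehydrogenase of the isoleucine branch, was 353 ± 99.5, 137 ± 39.8 and 231 ± 21.1 CPM (−1.37, SE 0.24, adjusted p = 0.0017).

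Of the leucine branch past 3-methylcrotonyl-CoA carboxylase, Auh, the hydratase, fell by 0.53 (SE 0.15, adjusted p = 0.015, edgeR). Slc25a44, the mitochondrial carrier of branched-chain amino acids, fell by 0.62 (SE 0.16, adjusted p = 0.010, edgeR), from 39.4 ± 10.4 CPM at AL (SD, n = 3) to 25.7 ± 1.68 CPM at LC (n = 4), and was at 44.1 ± 2.85 CPM at RF (n = 3). Auh and Slc25a44 were chosen after their values were seen. Klf15, a transcription factor gene known to raise amino acid breakdown in mice, was 243 ± 46.4, 222 ± 62.5 and 201 ± 15.8 CPM and did not pass (−0.13, SE 0.20, adjusted p = 0.66, edgeR).

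At RF against AL, 0 of the 24 passed in edgeR, beside 0.0547% of all genes. An unadjusted p below 0.05 was found for 3 of the 24 and for 1381 of the 12789 genes tested. DESeq2 called 0 of the 24, beside 40 higher and 59 lower over all genes. The median was −0.20. At RF against LC, 9 of the 24 were higher and 1 lower, beside 22.1% of all genes called, 11.4% higher and 10.7% lower. The median was 0.36, against −0.02 over all genes. Pcca (1.25, SE 0.17, adjusted p = 0.00068, edgeR), Mmut (0.89), Slc25a44 (0.78) and Acadsb (0.62) were among the 9, and Ppm1k was the 1. The count was 6 without RF replicate 1 or without RF replicate 2, and all 6 were higher. Over all genes, the 1452 higher and 1369 lower became 1003 and 914 without RF replicate 1. They became 792 and 643 without RF replicate 2.

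**Figure D5:**
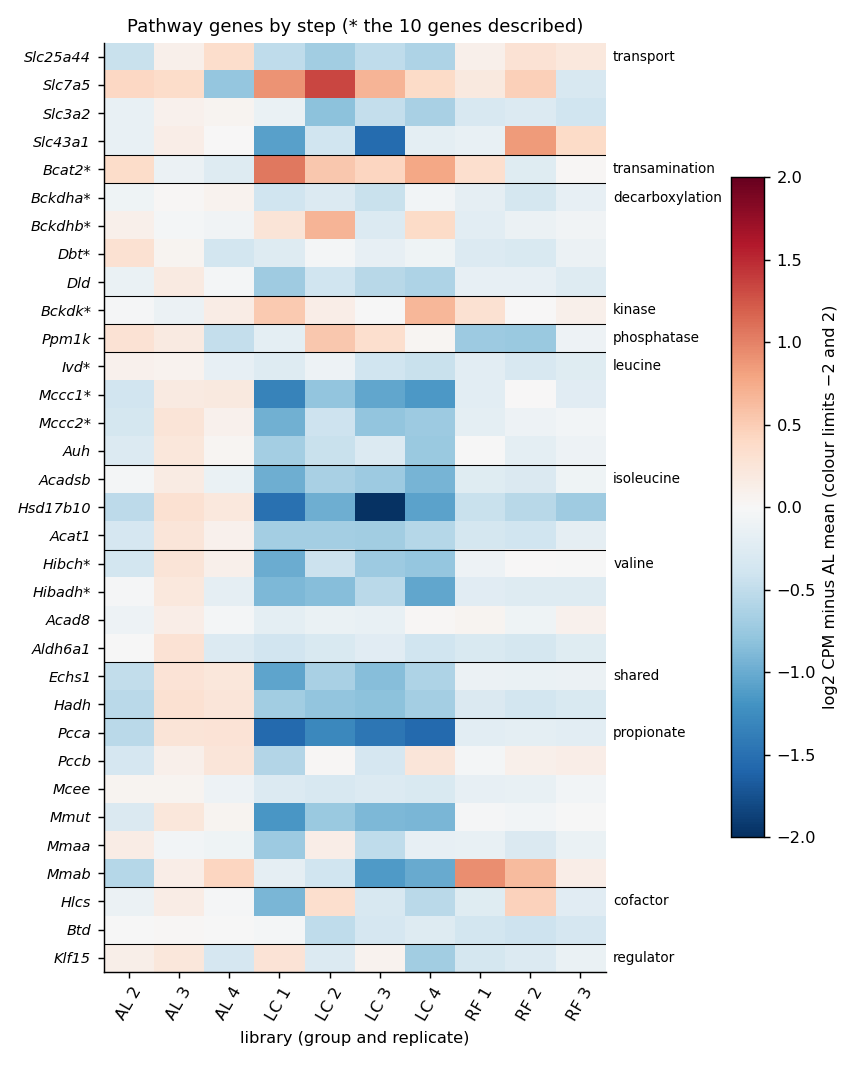
Log2 CPM minus the AL mean (colour, from −2 in blue to 2 in red) for 33 of the 34 genes tested, in rows grouped by step, across the 10 libraries in columns, with the 10 genes described marked by an asterisk. In the LC columns 28 of the 33 genes have a mean below AL, the lowest of them Pcca at −1.46, with Bcat2, Bckdhb and Bckdk among the 5 above, and the RF columns lie nearer to AL.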

How the data were processed

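Poly(A)-enriched RNA was sequenced without strand on the BGI DNBSEQ platform, with RNA integrity numbers of 6.6 to 8.5, per the labels' protocols. The authors deposited expected counts, of which 10.9% of values were not whole, and FPKM, fragments scaled to transcript length and library size. Per the submitters' processing notes, the tools include HISAT and Bowtie2 and the build is GRCm39. No source used here names the counter or annotation.

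Counts were rounded. Genes were filtered with filterByExpr (12789 of 17359 kept), scaled by TMM and fitted with a mean per group over all 10 libraries in edgeR 4.0.16 (R 4.3.3), glmQLFit robust. Standard errors were computed by dividing the absolute log2 fold change by the root of its F statistic. Intervals use the test's degrees of freedom. Ratios were tested by exact permutation (scipy 1.17.1). Alternatives used DESeq2 1.42.0, limma 3.58.1 on log2(FPKM + 1) or log2(FPKM + 0.1), other scalings and filters, and, added after seeing the data, offsets for transcript length and GC content (97.9% of tested genes had both). The fits were tested on simulated counts.

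The 10 genes, the other lists and the tests were chosen with earlier results of these data known. All 10 are named. Of the other pathway genes, Bcat1, Dld, Ppm1k and Klf15 and the 4 called with the smallest p at LC against AL are named, besides those said to be chosen later. Of that list, 1 gene is counted but not reported here by name.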

Additional observations from a re-analysis of the deposited data

How the results depend on the processing

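The count of called genes among the 10 stayed within 1.5 times under every setting run, except at RF against LC, where leaving out 1 library gave 3 to 6 against 5. The genes called did change at LC against AL. DESeq2 gave 1 higher and 6 lower, beside 2002 and 2247 over all genes. The fit on log2(FPKM + 1) gave 3 higher and 4 lower, beside 4291 and 708 over all genes. With length and GC trends removed it was 2 higher and 5 lower, beside 1500 and 1882 over all genes. Leaving out 1 library gave 4 to 6 at LC against AL and 0 at RF against AL. Over all genes, leaving out 1 library gave 959 to 2186 higher and 1151 to 2167 lower at LC against AL. It gave 792 to 1604 higher and 643 to 1537 lower at RF against LC, and at most 4 higher and 10 lower at RF against AL. Among the other pathway genes, library totals, log2(FPKM + 1) and log2(FPKM + 0.1) each gave 8 called at LC against AL in place of 13, and leaving out 1 library gave 6 to 12 in place of 10 at RF against LC. The log2 fold changes of Mccc1, Mccc2, Hibch and Hibadh at LC against AL kept their direction and call under all 20 alternatives.

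Signs turned only for genes without a call. With library totals, log2(FPKM + 1) and log2(FPKM + 0.1), in that order, LC against AL was 0.023, 0.036 and 0.036 for Bckdha, 0.15, 0.18 and 0.18 for Dbt, 0.012, 0.0085 and 0.0086 for Ivd and 0.20, 0.098 and 0.098 for Klf15. RF against AL was 0.061, 0.066 and 0.068 for Hibch and 0.076, 0.077 and 0.079 for Mmut. RF against LC was −0.15, −0.16 and −0.16 for Bckdha and −0.16, −0.16 and −0.16 for Ivd. These settings drop the TMM factors, which by itself shifts all genes. Leaving out 1 library gave ranges that cross 0 at LC against AL for Dbt (−0.32 to 0.0076), Ppm1k (−0.034 to 0.31), Klf15 (−0.28 to 0.027) and the log2 ratio of Bckdk to Ppm1k (−0.039 to 0.46), at RF against AL for Bcat2 (−0.13 to 0.24), Hibch (−0.22 to 0.074) and Mmut (−0.17 to 0.073), and at RF against LC for Ivd (−0.0050 to 0.11) and Klf15 (−0.30 to 0.011). The cause was not tested.

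Whether shared replicate numbers mark paired samples was examined by correlations of deviations from the group. AL libraries had −0.046 to 0.065 with the LC library of the same number and −0.040 to 0.014 with that of RF. In neither comparison did a same-numbered pair have the highest value. For RF with LC, the same-numbered values were 0.25, 0.18 and 0.049 for replicates 1, 2 and 3, against −0.21 to 0.12 for different numbers. Those of replicates 1 and 2 were the highest of that comparison, whereas RF replicate 3 was closest to LC replicate 4 (0.12). These values do not decide whether LC and RF samples were paired. With the replicate block the counts over the 10 genes were 5, 0 and 5, as without it, and RF against AL turned to −0.13 for Bcat2, 0.023 for Hibch and 0.024 for Mmut, and RF against LC to −0.0092 for Ivd. Depth was lowest for Bckdk, at 104 to 225 counts a library, while Bcat2 had the largest standard error of the 10 genes in each comparison (0.19, 0.21 and 0.19).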

Other observations

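Ratios of FPKM within a library describe how transcripts of one enzyme or of successive enzymes stand to each other and do not depend on the scaling of libraries. These ratios were not tested. The step from counts to FPKM differed between libraries. Bcat2 had 712 counts and 25.6 FPKM in AL replicate 2, but 722 counts and 21.8 FPKM in RF replicate 1. Ratios of FPKM thus need not match ratios of counts. Mccc1, the biotin-bearing subunit, was at 0.477 to 0.544 times Mccc2 in the AL libraries, at 0.379 to 0.423 at LC and at 0.445 to 0.544 at RF, so the LC libraries lay below all others although both subunit transcripts were lower there. Bckdha stood to Bckdhb, the other subunit of the decarboxylase, at 2.02 to 2.46 in AL, 1.21 to 2.03 in LC and 1.93 to 2.32 in RF libraries, with overlap. To Dbt of the same complex it stood at 5.85 to 10.2, 6.36 to 7.85 and 7.33 to 8.11 in that order, also with overlap. Bcat2 stood to Bckdha, the enzyme after it, at 0.143 to 0.211 in LC libraries, against 0.0603 to 0.0968 in AL and 0.0814 to 0.0882 in RF libraries. Every LC library was thus above every AL and RF library in the ratio to Bckdha.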
